A study of Mus musculus with 83 samples.

Results

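The clustered protocadherins are a family of cell surface adhesion proteins of the cadherin superfamily. Their genes lie side by side in the alpha, beta and gamma clusters on mouse chromosome 18. Members were taken from the count table by symbol, as every row named Pcdha, Pcdhb or Pcdhg followed by a number, or by a, b or c and a number. This gave 58 of the 37764 genes listed, with 14 in the alpha, 22 in the beta and 22 in the gamma cluster.

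The counts came from polyA RNA-seq of the colon of 83 male C57BL/6J/Ukj mice, with 1 library per mouse. No treatment or genetic change was named for any group. The paper states that the samples belonged to a larger study of several variables. The groups aged 3, 9 and 15 months had 16 mice each, the group aged 24 months had 17, and the oldest, aged 28 months, had 18. Every age was present with 4 to 7 mice in each of 3 rounds of library preparation, called batches here. The tissue was the proximal section of the whole colon wall, so epithelium, muscle, stroma and the enteric nervous system were measured together.

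In neurons, each cell expresses a small set of these genes and thereby gains a surface identity that lets its branches recognize and avoid their own kin. The isoforms bind the same isoform on a facing cell, and mixed dimers carry this specificity. Every alpha and every gamma gene has its own variable exon with its own promoter, which is spliced to constant exons shared by its cluster, whereas a beta gene is a single coding exon with no constant region. The last genes of the alpha and gamma clusters, called C-type, are expressed more evenly across cells than the others, and promoter choice depends on CTCF, cohesin and DNA methylation. No cell type was separated in these libraries.

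In the GRCm38 build, the alpha cluster spans positions 36930184 to 37187661 of chromosome 18, the beta cluster 37264938 to 37524479 and the gamma cluster 37661793 to 37841873, all on the plus strand. In the annotation, 2860 exon bases were common to all 14 alpha genes and 2116 to all 22 gamma genes. A read on these constant exons cannot be given to a single member, and near-identical stretches of paralogs lose reads because only uniquely mapped reads were counted. Levels were therefore compared between genes as CPM, the count relative to the TMM-scaled library size, per kb of exon that no other gene of the same strand covered. The gene with identifier ENSMUSG00000007440 carries the symbol Pcdha11 in the annotation together with another gene, and is called Pcdha10 here as in RefSeq.

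The total count per mouse lay between 23026370 and 75838290. Markers of every cell type tested were present at all ages, among them 9 of 9 for enteric neurons and 6 of 6 for enteric glia, and no marker was at 0 in all mice. The summed CPM of the 6 smooth muscle markers was at most 2190 in 7 mice, 4 of 3 months and 3 of 9 months, and at least 2544 in the other 76. Summed neuron markers reached from 35.1 to 156 CPM at 3 months and from 56.3 to 113 CPM at 28 months. Because tissue makeup varied in this way, counts of members called are given below with and without those 7 mice, and fewer cells of a type cannot be told apart from less RNA per cell in whole tissue.

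The clustered protocadherins were mostly low in colon, with a few clear exceptions. Of the 58 members, 42 passed the filter on low counts, namely 1 alpha, 20 beta and 21 gamma genes. The 16 others had between 6 and 451 counts over all 83 mice and never more than 16 in a mouse, and they comprised 13 alpha genes with Pcdhb1, Pcdhb2 and Pcdhgb8. The gamma cluster held 68.5% of the summed mean CPM of all members, the beta cluster 30.0% and the alpha cluster 1.53%. This sum is of CPM not divided by length, and reads on the shared constant exons cannot be given to a member.

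The C-type genes alone made up 46.4% of this sum, almost all of it from the gamma cluster. Pcdhgc3 had the highest level per length, 8.21 ± 1.13 CPM per kb (SD, n = 83), and ranged from 4.75 to 10.7 across mice. Pcdhgc4, its neighbour on the chromosome, followed with 1.37 ± 0.231 CPM per kb. Each of these was above the next member in the order of levels in all 83 mice. Pcdhgc5, the last gene of the cluster, was far lower at 0.242 ± 0.054 CPM per kb. The alpha C-type genes reached 0.142 ± 0.055 CPM per kb for Pcdhac2 and 0.010 ± 0.011 CPM per kb for Pcdhac1.

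Below the leading pair the levels formed a continuum. Pcdhgb6 was next with 0.806 ± 0.194 CPM per kb, followed by Pcdhb17 with 0.736 ± 0.195, and Pcdhgb6 exceeded Pcdhb17 in 46 of 83 mice. Of the 57 pairs of neighbours in the order of levels, 54 differed by less than 1 SD of their difference over mice. By median, gamma B genes stood at 0.288, gamma A genes at 0.260, beta genes at 0.188 and the variable alpha genes at 0.023 CPM per kb. The variable alpha genes ranged from 0.0040 for Pcdha4 to 0.041 for Pcdha2, so the level of each rests on few reads. With merged exon length in place of unique exon length, Pcdhgc3 and Pcdhgc4 stayed at ranks 1 and 2, Pcdhb17 moved to rank 3 and Pcdhgb6 to rank 5.

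**Figure D1:**
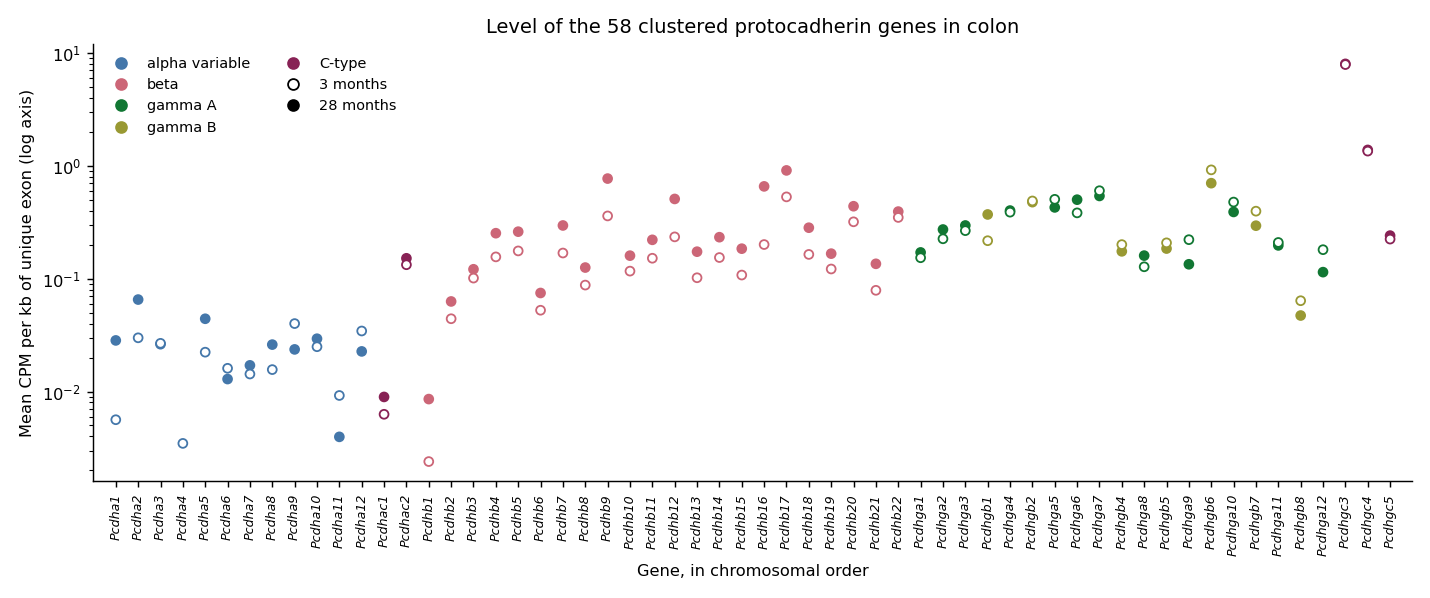
Mean CPM per kb of unique exon (log axis) of the 58 clustered protocadherin genes in chromosomal order, with open circles for the 16 mice of 3 months and filled circles for the 18 mice of 28 months. Most beta genes have the filled circle above the open one, Pcdhgc3 lies above all others at about the same level at both ages, and Pcdha4 has no circle at 28 months because no read was counted there.

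The beta genes had a higher sum at each later age, while the sums of the other groups moved less. The summed CPM of the 22 beta genes had a lowest, median and highest value of 10.5, 17.1 and 22.2 at 3 months, 12.6, 19.5 and 21.4 at 9 months, and 18.0, 21.2 and 23.9 at 15 months. At 24 months these values were 20.7, 25.8 and 29.1, and at 28 months 19.9, 27.0 and 39.2. The mean was 16.5 ± 3.38 CPM (SD, n = 16) at 3 months and 27.6 ± 4.30 CPM (n = 18) at 28 months, a ratio of 1.68, and the groups overlapped only slightly. Without the 7 mice low in smooth muscle markers the mean at 3 months was 17.8 ± 2.38 CPM (n = 12) and the ratio 1.56.

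In contrast, the 19 gamma A and B genes summed to 17.4 ± 3.36 CPM at 3 months and 16.1 ± 2.03 CPM at 28 months. The 3 gamma C-type genes summed to 32.4 ± 3.51 and 33.0 ± 3.22 CPM, and the 14 alpha genes to 1.02 ± 0.493 and 1.22 ± 0.348 CPM. Without the 7 mice low in smooth muscle markers the ratio of means at 28 against 3 months was 0.861 in place of 0.927 for gamma A and B, 1.01 in place of 1.02 for gamma C-type and 1.01 in place of 1.19 for alpha genes. As a share of all clustered protocadherin CPM, the beta genes went from 24.3% ± 3.07 to 35.4% ± 3.69 and the gamma A and B genes from 25.6% ± 2.21 to 20.6% ± 1.67. In each mouse, the beta sum divided by the gamma A and B sum was between 0.750 and 1.12 at 3 months and between 1.38 and 2.27 at 28 months, so that on this ratio the youngest and oldest mice did not overlap. At 9 months it lay between 0.811 and 1.38, at 15 months between 1.09 and 1.89 and at 24 months between 1.39 and 1.78. These sums and this ratio are descriptions and were not tested. The ratio leaves out the gamma C-type genes, and how often other ratios separate these ages was not computed.

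**Figure D2:**
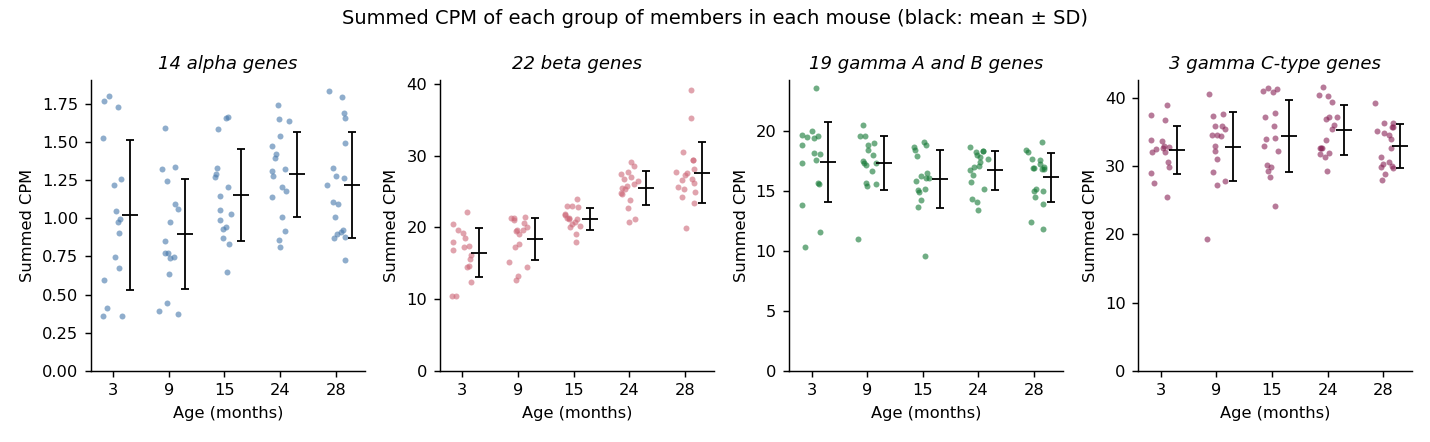
Summed CPM of the 14 alpha, 22 beta, 19 gamma A and B and 3 gamma C-type genes in each of the 83 mice by age in months, with the mean ± SD in black. The mean beta sum goes from 16.5 at 3 months to 27.6 at 28 months, whereas the gamma C-type sum stays between 32.4 and 35.4.

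Between 3 and 28 months, the quasi-likelihood test of edgeR, adjusted by Benjamini-Hochberg, called 25 of the 42 tested members at an adjusted p below 0.1, with 19 higher and 6 lower at 28 months. Of all 18325 genes tested, 49.4% were called in this comparison, 23.5% higher and 25.9% lower, so the share of members called as such was not far from the background while their direction was uneven. All 20 tested beta genes had a positive log2 change, with a median of 0.63, and 17 were called higher and none lower. The median over all genes tested was -0.0087. Of the 18 tested gamma A and B genes, 2 were called higher and 6 lower, with a median of -0.12. The 4 tested C-type genes were not called, with changes between 0.017 and 0.16. Of the 25 called members, 24 had the same direction in all 3 library batches, the exception being Pcdhb6 with log2 ratios of 1.16, -0.43 and 0.51. Without the 7 mice low in smooth muscle markers 27 members were called, 24 of them among the 25, with 18 higher and 9 lower. With enteric neuron and glia scores as covariates 24 were called, 20 higher and 4 lower.

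**Figure D3:**
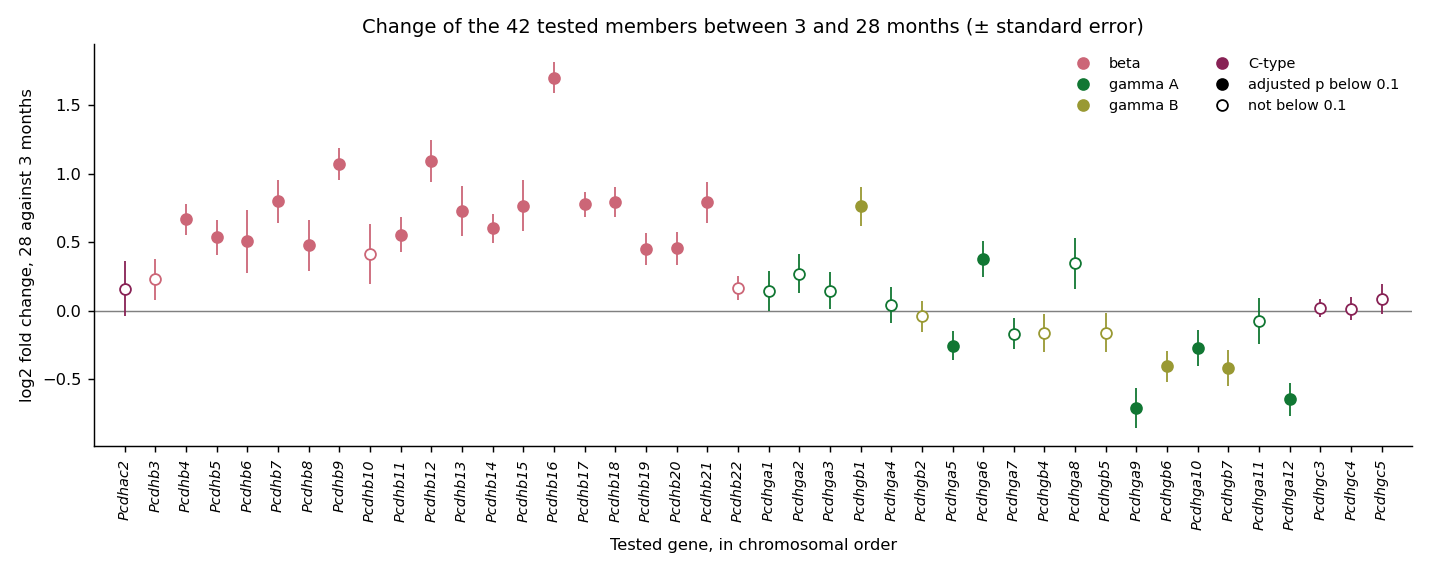
The log2 fold change at 28 against 3 months ± standard error of the 42 tested members in chromosomal order, filled where the adjusted p was below 0.1 in edgeR's quasi-likelihood test. The 20 beta genes all lie above 0, with Pcdhb16 highest at 1.70, and the gamma A and B genes go from above 0 at the start of their cluster to below 0 near its end.

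Among the beta genes, whose products join the homophilic recognition units but lack a signalling constant domain, Pcdhb16 changed most. Its CPM had a lowest, median and highest value of 0.520, 1.04 and 1.65 at 3 months and 0.826, 1.36 and 1.88 at 9 months, and it ranged from 1.29 to 2.27 at 15 months. The 3 values were 2.04, 2.79 and 3.84 at 24 months and 2.66, 3.13 and 5.11 at 28 months. All 18 mice of 28 months lay above the highest mouse of 3 months, and among all 58 members only Pcdhb16 showed such a separation in this comparison, beside 0.704% of all genes tested. Pcdhb16 was higher by 1.70 ± 0.11 (log2, SE), or 3.25-fold, with an adjusted p of 1.8e-22 by edgeR's quasi-likelihood test. Within library batches the log2 ratio of mean CPM was 1.97, 1.63 and 1.49.

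The next largest rises were those of Pcdhb12 and Pcdhb9. For Pcdhb12 the lowest, median and highest CPM were 0.161, 0.661 and 1.56 at 3 months and 0.627, 1.57 and 2.45 at 28 months. Both ages overlapped, with 9 of 18 older mice above every younger mouse and 17 of 18 above their median. The log2 change was 1.09 ± 0.15 with an adjusted p of 1.9e-08 by edgeR. For Pcdhb9 the values were 0.483, 1.10 and 1.70 CPM at 3 months and 1.42, 2.23 and 4.20 CPM at 28 months. Here 16 of 18 older mice were above every younger mouse, and the log2 change was 1.07 ± 0.12 with an adjusted p of 3.8e-12 by edgeR.

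Pcdhb17, the beta gene with the highest level, had a lowest, median and highest value of 1.20, 2.44 and 3.54 CPM at 3 months and 3.29, 4.11 and 6.03 CPM at 28 months. Of the older mice, 17 of 18 exceeded every younger mouse, and the log2 change was 0.78 ± 0.091 with an adjusted p of 5.0e-11 by edgeR. The other called beta genes rose by between 0.45 for Pcdhb19 and 0.80 for Pcdhb7. Pcdhb3, Pcdhb10 and Pcdhb22 were not called, with log2 changes of 0.23, 0.41 and 0.17. Pcdhb22, which lies last in the cluster and has the second highest CPM in it, had 1.36, 2.03 and 2.99 CPM as lowest, median and highest value at 3 months and 1.87, 2.42 and 3.17 CPM at 28 months, and 16 of 18 older mice were above the younger median but only 1 above every younger mouse (adjusted p = 0.13 by edgeR).

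Members of the beta cluster thus took different shares of it at different ages. Pcdhb16 made up 6.25% ± 0.976 of the summed beta CPM at 3 months and 12.4% ± 1.53 at 28 months, while Pcdhb22 went from 13.3% ± 2.36 to 8.89% ± 1.46. Pcdhb17 kept a share of 15.0% ± 1.79 and 15.4% ± 1.43. Over the 4 steps between ages, the mean CPM was higher at every step for 14 of the 20 tested beta genes and lower at every step for none. These means include the 7 mice low in smooth muscle markers, all of 3 or 9 months. The share of all genes with such steps was not computed.

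The variable genes of the gamma cluster are joined to a constant region that reaches the cytoplasm. Of 21 tested gamma genes, 6 were called lower and 2 higher, beside 25.9% and 23.5% of all genes tested. By sign, 10 lay above 0 and 11 below. Pcdhga9 had a lowest, median and highest value of 0.576, 0.705 and 1.13 CPM at 3 months and 0.125, 0.458 and 0.821 CPM at 28 months. Of the older mice, 15 of 18 were below every younger mouse, and the log2 change was -0.71 ± 0.15 with an adjusted p of 5.0e-05 by edgeR. Within the batches the change of Pcdhga9 was uneven, with log2 ratios of -0.91, -0.10 and -1.16.

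Pcdhga12, the last gamma A gene, had a lowest, median and highest value of 0.598, 0.784 and 1.08 CPM at 3 months and 0.366, 0.504 and 0.831 CPM at 28 months. Of the older mice, 14 of 18 were below every younger mouse, and the log2 change was -0.65 ± 0.12 with an adjusted p of 7.1e-06 by edgeR. Pcdhgb7 had 0.618, 1.06 and 1.34 CPM at 3 months and 0.364, 0.759 and 1.18 CPM at 28 months, and the ages overlapped. Its log2 change was -0.42 ± 0.13 (adjusted p = 0.0066 by edgeR). Pcdhgb6, the gamma B gene with the highest level, went from a mean of 2.36 ± 0.583 to 1.80 ± 0.426 CPM, a log2 change of -0.40 ± 0.11 (adjusted p = 0.0024 by edgeR).

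The smaller falls were those of Pcdhga10 and Pcdhga5, by 0.27 and 0.25 on the log2 scale. Neither was called with enteric neuron and glia scores as covariates, where the log2 changes were -0.15 and -0.12, or without library batch 1, where they were -0.20 and -0.24. Pcdhga10 also lost its call with DESeq2, without the filter, at a threshold of 0.05, with a replicate block (-0.21) and without library batch 2 (-0.22). Pcdhga5 also lost its call without library batch 3, where its log2 change was -0.14. The 2 gamma genes called higher were Pcdhgb1 and Pcdhga6, of which the former was singled out after its values were seen. Pcdhgb1 went from a mean of 0.569 ± 0.154 to 0.972 ± 0.207 CPM, and 16 of 18 older mice were above every younger mouse. Pcdhga6 went from 1.00 ± 0.351 to 1.31 ± 0.270 CPM, a log2 change of 0.38 ± 0.13 with an adjusted p of 0.015 by edgeR. Its call was lost without library batch 3, where the log2 change was 0.26 (adjusted p = 0.21 by edgeR).

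Log2 changes of the gamma A and B genes were ordered along the chromosome. Across the 18 tested gamma A and B genes, the log2 change at 28 against 3 months was lower the later a gene came in chromosomal order (Spearman's rho = -0.70), while the 20 tested beta genes showed no such order (rho = 0.065). Both are descriptions across genes that share libraries and, for gamma genes, constant exons, and genes are not independent replicates. The C-type genes at the end of the gamma cluster had changes close to 0, and over all 21 tested gamma genes rho was -0.46.

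**Figure D4:**
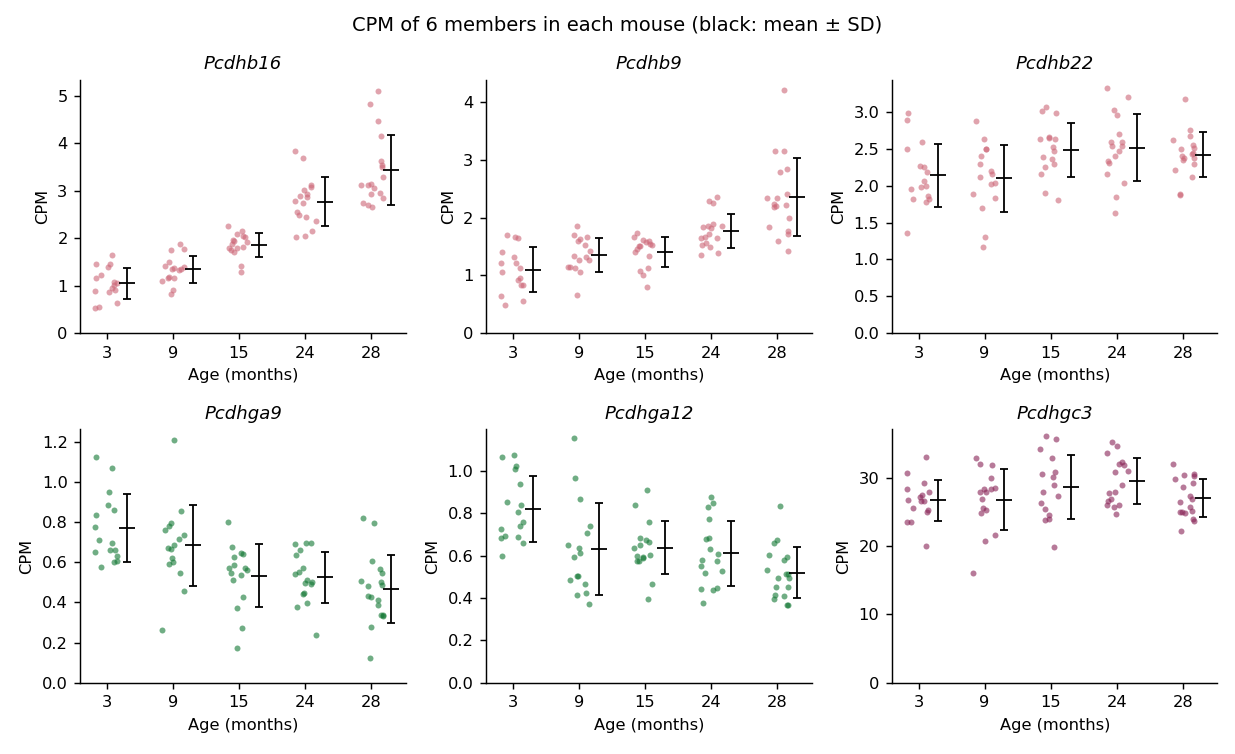
CPM of Pcdhb16, Pcdhb9, Pcdhb22, Pcdhga9, Pcdhga12 and Pcdhgc3 in each of the 83 mice by age in months, with the mean ± SD in black and each axis starting at 0. The mean of Pcdhb16 is higher at every age than at the one before, from 1.05 to 3.4 CPM, Pcdhga9 and Pcdhga12 are lower at 28 than at 3 months, and the mean of Pcdhgc3 stays between 26.7 and 29.5 CPM.

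The C-type genes did not differ detectably between ages in the main fit. In a test over all 5 ages, Pcdhgc3 was called with enteric neuron and glia scores as covariates and without library batch 1. Pcdhgc3 had a lowest, median and highest value of 20.0, 26.7 and 33.1 CPM at 3 months and 22.2, 26.7 and 32.1 CPM at 28 months, and 9 of 18 older mice were above the younger median. Its log2 change was 0.021 ± 0.067 (adjusted p = 0.82 by edgeR). Pcdhgc4 was at 4.70 ± 0.732 and 4.81 ± 0.865 CPM, Pcdhgc5 at 1.03 ± 0.263 and 1.11 ± 0.240 CPM, and Pcdhac2 at 0.402 ± 0.221 and 0.459 ± 0.149 CPM. Their log2 changes were 0.017 ± 0.083, 0.087 ± 0.11 and 0.16 ± 0.20. Pcdhac1 had at most 4 counts in a mouse and was at 0 in 9 of 16 mice of 3 months and 11 of 18 of 28 months, and in the fit without the filter its log2 change was 0.46 ± 0.56 (adjusted p = 0.63 by edgeR).

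The variable alpha genes were too low for the main test. Pcdha2, the highest of them, had between 0 and 0.165 CPM at 3 months with a median of 0.069, and between 0.036 and 0.353 CPM at 28 months with a median of 0.160. In a fit without the filter, 4 of the 16 untested members were called at 28 against 3 months, all higher, beside 25.1% of all genes in that fit, so their share was that of the background. These were Pcdha1, Pcdha2, Pcdha5 and Pcdhb1, with log2 changes of 2.02 ± 0.52, 1.10 ± 0.30, 0.94 ± 0.35 and 1.44 ± 0.61. They rest on few reads, at most 16 in any mouse, and the genes between them, such as Pcdha3 at -0.045 ± 0.39, were not called.

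The study covered intermediate ages, so neighbouring ages were compared in turn. Between 3 and 9 months, 3 of 42 members were called by edgeR's quasi-likelihood test, beside 8.69% of all genes. Pcdhb16 was higher by 0.35 ± 0.12 (adjusted p = 0.062), Pcdhga6 higher by 0.37 ± 0.13 (adjusted p = 0.097), and Pcdhga12 changed by -0.38 ± 0.12 (adjusted p = 0.053). The mean of Pcdhga12 went from 0.821 ± 0.156 to 0.630 ± 0.217 CPM in this interval and was 0.638 ± 0.126 CPM at 15 months. None of the 3 was called without the 7 mice low in smooth muscle markers, where the log2 changes were 0.24, 0.25 and -0.39 with adjusted p of 0.35, 0.44 and 0.11 by edgeR. With enteric neuron and glia scores as covariates 6 members were called, the 3 among them, and without a library batch 0 to 1. With fibroblast and smooth muscle scores 2 were called, Pcdhga12 and Pcdhga10, while Pcdhb16 and Pcdhga6 had log2 changes of 0.28 and 0.34 without a call.

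Between 9 and 15 months, Pcdhb16 alone was called, higher by 0.47 ± 0.11 (adjusted p = 0.036 by edgeR), beside 0.431% of all genes. It was called together with Pcdhga7 when the 7 mice were left out. Between 15 and 24 months, 7 of 42 members were called by edgeR, all higher and all beta genes, beside 13.5% of all genes called and 6.28% called higher. These were Pcdhb16 by 0.58 ± 0.11, Pcdhb12 by 0.54 ± 0.15 and Pcdhb7 by 0.45 ± 0.16, with smaller rises of Pcdhb4, Pcdhb9, Pcdhb14 and Pcdhb17. The same 7 were called without the 7 mice low in smooth muscle markers. With enteric neuron and glia scores as covariates 4 of the 7 remained, and Pcdhb4, Pcdhb7 and Pcdhb9 did not pass, with log2 changes of 0.28, 0.32 and 0.24. Without library batch 2 the calls were those of Pcdhb16 and Pcdhb17, and the 5 others had log2 changes from 0.23 for Pcdhb14 to 0.47 for Pcdhb7. Without library batch 3 they were those of Pcdhb12 and Pcdhb16, and the 5 others had log2 changes from 0.23 for Pcdhb14 to 0.32 for Pcdhb4. In the same comparison 4 of 5 endothelial, 2 of 7 leukocyte, 1 of 6 enteric glia and 1 of 6 fibroblast markers were called higher. With fibroblast and smooth muscle scores as covariates all 7 calls remained, and the part of endothelial and leukocyte markers was not tested.

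Between 24 and 28 months, 2 members were called by edgeR, beside 11.7% of all genes. Pcdhb9 was higher by 0.37 ± 0.11 (adjusted p = 0.028) and Pcdhb16 by 0.30 ± 0.10 (adjusted p = 0.064). Pcdhb16 thus passed in each comparison of neighbouring ages, but 3 of these 4 calls were lost under alternatives. Without library batch 1 its log2 change was 0.29 at 9 against 3, 0.49 at 15 against 9 and 0.17 at 28 against 24 months, with adjusted p of 0.40, 0.48 and 0.64 by edgeR on fewer mice. Pcdhb9 also lost its call at 28 against 24 months there, with a log2 change of 0.28 (adjusted p = 0.40 by edgeR). In every comparison of neighbouring ages each called member had the same direction in all 3 batches. For Pcdhb16 at 24 against 15 months the highest adjusted p over the alternatives was 0.027. The call of Pcdhb16 at 15 against 9 months was lost when any 1 library batch was left out, and its call at 28 against 24 months without library batch 1 or 2. Both calls at 28 against 24 months remained without the 7 mice low in smooth muscle markers. Comparisons that follow each other share a group of mice and are not independent.

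Tested over all 5 ages at once, 29 of 42 members were called by edgeR, among them 19 of 20 beta and 10 of 18 gamma A and B genes, beside 54.9% of all genes. None of the 4 C-type genes was called in this main fit, though Pcdhgc3 was under the 2 alternatives given above. Without the 7 mice low in smooth muscle markers 26 members were called, 25 of them among the 29. No member was called as departing from a straight line in age, beside 16.2% of all genes. At an unadjusted p below 0.05 there was 1, Pcdhga7, at 0.017 (adjusted p = 0.10 by edgeR), and DESeq2 called 1 member. Pcdhga7 differed over all ages (adjusted p = 0.0071 by edgeR), with a log2 change of -0.40 between 9 and 15 months that was not called on its own (adjusted p = 0.14). Without the 7 mice low in smooth muscle markers 2 members were called as nonlinear, Pcdhb9 and Pcdhga7.

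Genes that act on or with the clusters were described from lists chosen with earlier results known, and their counts stand beside the 49.4% of all genes called at 28 against 3 months, 23.5% higher and 25.9% lower. At 28 against 3 months, 11 of 21 regulators of the clusters were called by edgeR, 2 higher and 9 lower, with a median log2 change of -0.068, so the share called was near that of all genes. Tet2, which oxidizes methylated DNA, and Stag1, a cohesin subunit, were higher by 0.16 ± 0.060 and 0.14 ± 0.037. Smchd1, a repressor of the clusters, changed by -0.23 ± 0.048, and Setdb1, a histone methyltransferase, by -0.17 ± 0.032. Among the 14 tested protocadherins outside the clusters, 3 were called higher and 6 lower, with a median of -0.12, beside 49.4% of all genes called. Pcdh11x and Pcdh19 were higher by 0.60 and 0.56, and Pcdh10 and Pcdh20 changed by -0.51 and -0.47.

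Of 22 genes for cleavage and cytoplasmic partners, 5 were called higher and 5 lower, with a median of 0.033, a share close to the 49.4% of all genes. Among them Cyfip2 was higher by 0.20 ± 0.081 and Nlgn1 was at 0.14 ± 0.16 without a call, while Adam17, a membrane protease, changed by -0.22 ± 0.038 and Ret, a receptor of the enteric nervous system, by -0.29 ± 0.11. Of the 16 tested genes that flank the clusters on the chromosome, 1 was called higher and 8 lower, with a median of -0.052, beside 23.5% of all genes called higher and 25.9% lower. Ndfip1 was higher by 0.058 and Fchsd1 was at 0.053 without a call, whereas Dnd1 and Rell2 changed by -0.42 and -0.40. The beta genes lie between these neighbours and had a median of 0.63.

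Markers of several cell types also differed between ages. At 28 against 3 months, beside 49.4% of all genes, 2 of 9 enteric neuron markers were called lower and none higher, and 1 of 6 enteric glia markers was called higher. Of the endothelial markers 4 of 5 were called higher, and their median sum went from 101 to 118 CPM. Of the epithelial markers 3 of 6 were called lower, of the fibroblast markers 2 higher and 1 lower, and of the 7 leukocyte markers 2 higher and 2 lower. None of the 6 smooth muscle markers and neither marker of interstitial cells of Cajal was called. Their part in the changes of the clustered protocadherins was not tested beyond the fits with scores as covariates.

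Across mice of the same age and batch, the level of some members varied with cell type markers. For the member with the highest CPM of each cluster, 24 correlations with marker scores were computed over 83 mice on residuals after age and batch, and 16 had an adjusted permutation p of Pearson's r below 0.1. Pcdhac2 varied with the enteric neuron score, with Pearson's r = 0.58 (permutation p = 1e-05, the smallest possible, adjusted p = 4e-05) and Spearman's rho = 0.48 (permutation p = 1e-05, adjusted p = 0.00012). Without the 2 mice farthest from the median score r was 0.55, within batches it was 0.57, 0.60 and 0.58, and without the 7 mice low in smooth muscle markers it was 0.44. With the smooth muscle score Pcdhac2 had r = 0.45 (permutation p = 1e-05, adjusted p = 4e-05) and rho = 0.32 (permutation p = 0.0035, adjusted p = 0.0081), and r was 0.22 without the 7 mice. With the glia score r was 0.53 and rho 0.45 (permutation p = 1e-05 and 6e-05, adjusted p = 4e-05 and 0.00029), and r was 0.37 without the 7 mice.

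Pcdhb17 varied with the enteric glia score, with r = 0.58 (permutation p = 1e-05, adjusted p = 4e-05) and rho = 0.48 (permutation p = 1e-05, adjusted p = 0.00012). Without the 2 farthest mice r was 0.54, within batches 0.57, 0.63 and 0.56, and without the 7 mice 0.41. With the neuron score r was 0.53 and rho 0.44 (permutation p = 1e-05 and 4e-05, adjusted p = 4e-05 and 0.00024), and with the smooth muscle score 0.49 and 0.35 (permutation p = 1e-05 and 0.0013, adjusted p = 4e-05 and 0.0038). Without the 7 mice r was 0.35 with the neuron and 0.25 with the smooth muscle score. No difference between members in these correlations was tested. Pcdhgc3 had r = 0.12 with the neuron score (permutation p = 0.29, adjusted p = 0.35) and rho = 0.20 (permutation p = 0.068, adjusted p = 0.11). With the endothelium score Pcdhgc3 had r = 0.45 (permutation p = 4e-05, adjusted p = 0.00014) and rho = 0.45 (permutation p = 3e-05, adjusted p = 0.00024). Here r was 0.35 without the 2 farthest mice, 0.44, 0.44 and 0.47 within batches and 0.46 without the 7 mice.

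The score of interstitial cells of Cajal, the pacemaker cells of the gut, had r = 0.44 with Pcdhac2, 0.28 with Pcdhb17 and 0.42 with Pcdhgc3 (permutation p = 6e-05, 0.011 and 6e-05, adjusted p = 0.00016, 0.024 and 0.00016). Spearman's rho was 0.35, 0.27 and 0.34 (permutation p = 0.0012, 0.014 and 0.0015, adjusted p = 0.0038, 0.026 and 0.0041). Without the 2 farthest mice r was 0.41, 0.22 and 0.35, and without the 7 mice 0.40, 0.25 and 0.46. The batches were uneven, with r of 0.40, 0.18 and 0.61 for Pcdhac2, 0.080, 0.21 and 0.49 for Pcdhb17, and 0.18, 0.21 and 0.74 for Pcdhgc3.

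Members also varied together from mouse to mouse. On residuals after age and batch, the 190 pairs of tested beta genes had a median r of 0.26, with a range of -0.14 to 0.72, and the 210 pairs of tested gamma genes a median of 0.29. Pairs of a beta and a gamma gene had a median of 0.21. The highest value was that of Pcdhb16 and Pcdhb17, neighbours on the chromosome, at 0.72, followed by Pcdhb16 with Pcdhb9 at 0.64. Pairs next to each other had a median of 0.29 for beta genes, with a lowest value of -0.090, and 0.35 for gamma genes. These are descriptions over 83 mice that share depth and tissue makeup, and low counts weaken them.

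**Figure D5:**
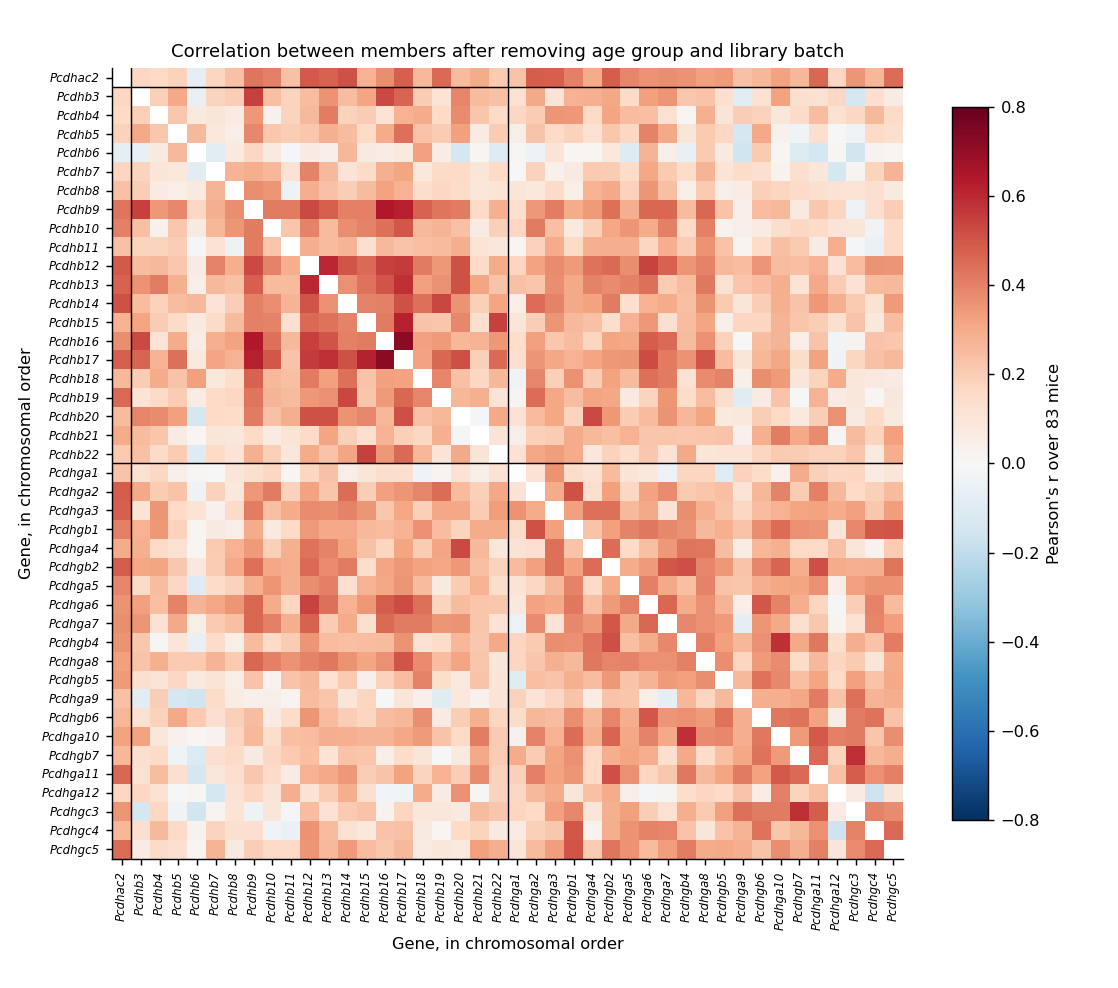
Pearson's r between tested clustered protocadherin genes over 83 mice, on log2 CPM after removing age and library batch, with genes in chromosomal order on both axes and colour for r. Pairs within the beta cluster have a median r of 0.26, pairs within the gamma cluster 0.29 and pairs across both 0.21.

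Outside the family, the genes whose residuals were most like the summed gamma cluster among 18283 genes were Prrc2b with r = 0.82, Ptpn13 with 0.80, and Hspg2, Mast4 and Glg1 with 0.75 each. For the summed beta cluster, a pattern added after values were seen, they were Chl1 with 0.77, Abcc9 with 0.74, Map1b with 0.73, and Trpm3 and Doc2b with 0.72 each. Both lists are descriptions over 83 mice that share libraries. Pcdhgc3 alone made up a mean of 53.3% to 56.8% of the summed gamma CPM, depending on age. Ptpn13 was also among the genes most like Pcdhgc3 alone, with r = 0.78.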

How the data were processed

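PolyA RNA-seq libraries of 83 mouse colons were analysed. Per the labels and the study's methods, the authors trimmed reads with cutadapt 2.8, aligned them to GRCm38 with HISAT2 2.1.0, kept uniquely mapped pairs with SAMtools 1.9 and counted them by gene and strand with featureCounts (Subread 2.0.1). The deposited values are raw counts per gene and mouse, with no replicates pooled. Age groups and library batches came from the labels.

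Counts were scaled with TMM and tested with edgeR 4.0.16 (quasi-likelihood F-test, filterByExpr by age, age group and library batch in 1 model of all 83 mice). P-values were adjusted by Benjamini-Hochberg over 18325 genes, with a threshold of 0.1. A call is an adjusted p below it. SE is the standard error of the log2 change and SD the spread between mice. Marker scores are means of log2 CPM with a prior count of 2. Unique exon lengths came from a GRCm38 annotation in which 37652 of 37764 genes were found. Permutation tests were two-sided with 100000 resamples. The tables used R 4.3.3, Python 3.11.15, pandas 2.3.3 and scipy 1.17.1, and figures matplotlib 3.10.9.

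Named were the C-type genes, the 3 members with the highest CPM of each cluster, the 3 largest rises and falls at 28 against 3 months, the members called at neighbouring ages (all where 5 or fewer, otherwise the 3 largest each way), and up to 4 genes of each list. Members, lists and tests were chosen with earlier results of these data known. Alternatives were DESeq2 1.42.0, its size factors, no filter or 1 CPM in 16 mice, no batch term, a replicate block, a threshold of 0.05, marker scores as covariates, leaving out a batch or the deepest library and, added after seeing the data, leaving out 7 mice low in smooth muscle markers. On simulated counts for 24 against 15 months with 18255 genes, 88 of 100 genes changed by 0.5 and 97 of 100 changed by 1 (log2) were recovered, with 26 unchanged genes called. In 649 pairs of mice of the same age, counts differed by at least 11.7 times the counting noise, so none was a duplicate. Total counts per mouse lay between 23026370 and 75838290.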

Additional observations from a re-analysis of the deposited data

How the results depend on the processing

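Numbers of members called depended on the processing mainly at neighbouring ages. At 9 against 3 months 3 members were called. This became 0 without the filter, at a threshold of 0.05, and without the mice low in smooth muscle markers. It became 6 with enteric neuron and glia scores as covariates, 2 with fibroblast and smooth muscle scores, and 0 to 1 without a library batch. At 15 against 9 months the 1 call became 2 with DESeq2, with either pair of scores and without the low mice, and 0 without any library batch. At 24 against 15 months the 7 calls became 4 with neuron and glia scores and 2 without library batch 2 or 3. At 28 against 24 months the 2 calls became 1 without the filter or at 0.05, and 0 without library batch 1. At 28 against 3 months 25 became 15, and over all ages 29 became 17, when at least 1 CPM in at least 16 mice was required, which tests fewer members. No call of a departure from a straight line became 1 with DESeq2, its size factors, the 1 CPM filter, no batch term, and without library batch 3 or the deepest library, and 2 with either pair of scores or without the low mice. Other causes were not tested. The median level of members per kb was 0.170 CPM with unique and 0.128 with merged exon length. Of the values for genes named by rule under alternatives, 987 kept their side of the threshold, 38 lost and 5 gained a call, and 0 reversed. This leaves out Pcdhb4, Pcdhb6, Pcdhb8, Pcdhb14, Pcdhga5 and Pcdhga10, which also lost calls. Replicate numbers did not pair the mice: 161 same-numbered pairs had a median correlation of 0.011, 38 were over 0.1, and 4 of 83 mice were nearest to their own number. With the replicate block, 27 members were called at 28 against 3 months, 3, 1, 7 and 2 at neighbouring ages in order, 29 over all ages and 0 as departing from a straight line.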
